A study of Arabidopsis thaliana with 18 samples.

Results

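The genes described here are the nuclear genes of the antenna and of the photosystems of Arabidopsis, 44 loci in all: 6 LHCA genes, 15 LHCB genes, 12 PSA genes and 11 PSB genes, out of 26716 genes with a probe on the array. They were chosen by name, with earlier results of these data known. Whole shoots of a pair of transgenic lines were compared. Both lines carry the ao null allele fin4-2 (SALK_013920), which removes aspartate oxidase, the first enzyme of de novo NAD synthesis, and both carry an introduced AO gene. In AOpro(wt)-AO plants this gene is driven by the wild-type AO promoter, and in AOpro(mut)-AO plants by the AO promoter mutated at its nitrate-responsive site. Each genotype was represented by 1 transgenic line (line #1, T3 or T4 progeny), so that line and promoter cannot be told apart. Seedlings were kept 1 day in the light and 2 days in the dark, grown hydroponically for 17 days in 1/10MS solution under continuous light, and harvested before treatment, after 3 days in N-free solution, or after these 3 days and a further 24 hours with 10 mM KNO3. Plants of the later stages were therefore older, and age and treatment cannot be told apart in any comparison between stages. There were 6 groups with 3 one-colour arrays each, and an array took the shoots of 2 or 3 seedlings, which the methods call a biological replicate.

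Light-harvesting complex (LHC) proteins bind chlorophyll and carotenoids and pass excitation energy to the reaction centres. LHCA proteins form the antenna belt of photosystem I. LHCB proteins serve photosystem II, with LHCB1, LHCB2 and LHCB3 in the trimers of the major complex and LHCB4, LHCB5 and LHCB6 as single proteins between the trimers and the core. PSA and PSB proteins are the subunits of photosystem I and photosystem II themselves. The nuclear-encoded ones include the ferredoxin and plastocyanin docking subunits of photosystem I, the oxygen-evolving proteins PSBO, PSBP and PSBQ, and PSBS, which acts in the thermal dissipation of excess light. In leaves these transcripts are among the most abundant of all, and they respond to light, sugar and N supply.

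Levels are given as log2 of the processed signal of a gene's brightest probe, minus the 75th percentile of its array, so that 0 is the level of that percentile and 1 unit is a doubling. Differences were tested with limma over 29416 probes of 21060 genes, and a gene passed at a Benjamini-Hochberg adjusted p of 0.05. All 44 genes were tested, with 129 probes, and their brightest probes lay well above background on all 18 arrays. The levels of 42 of the 44 were above the 90th percentile of their arrays, and no spot was saturated. The arrays were alike in quality, with 72.6% to 76.1% of spots well above background and a mean correlation with the other arrays of their group of 0.994 to 0.996 across probes. AO itself, the check of the labels, was at 1.5, 1.41 and 1.62 in AOpro(wt)-AO and -1.43, -1.59 and -0.99 in AOpro(mut)-AO before N starvation, and was lower in AOpro(mut)-AO at every stage, with log2 differences of -2.85, -2.38 and -2.12 (adjusted p of at most 4.15e-07). The shoot markers RBCS1A and CA1 were bright in all groups, whereas the summed level of 6 root markers was 0.0613 to 0.0764 in AOpro(wt)-AO and 0.0437 to 0.0620 in AOpro(mut)-AO before N starvation, in multiples of the 75th percentile signal. In whole shoots, fewer cells of a type and less RNA per cell cannot be told apart.

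Before N starvation, 12 of the 21 antenna genes passed the test between the lines and 9 did not, while 1 of the 23 photosystem subunit genes passed, and the sets were not tested against each other. Of the 21 LHCA and LHCB genes, 11 were higher in AOpro(mut)-AO (52.4%, where 19.3% of all genes were called higher) and 1 was lower (19.3% of all genes). None of the 12 PSA genes passed, and 1 of the 11 PSB genes was lower. Over all 44 genes 13 passed in either direction, which is 29.5%, below the 38.7% of all genes. The median difference was 0.34 for LHCA, 0.19 for LHCB, 0.036 for PSA and 0.0060 for PSB, beside -0.012 for all genes. LHCB3 alone also passed an absolute log2 difference of 1, a limit that 5.78% of all genes passed. With quantile normalization, which forces all arrays to 1 distribution, 11 genes were higher and 4 lower in place of 11 and 2.

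**Figure D1:**
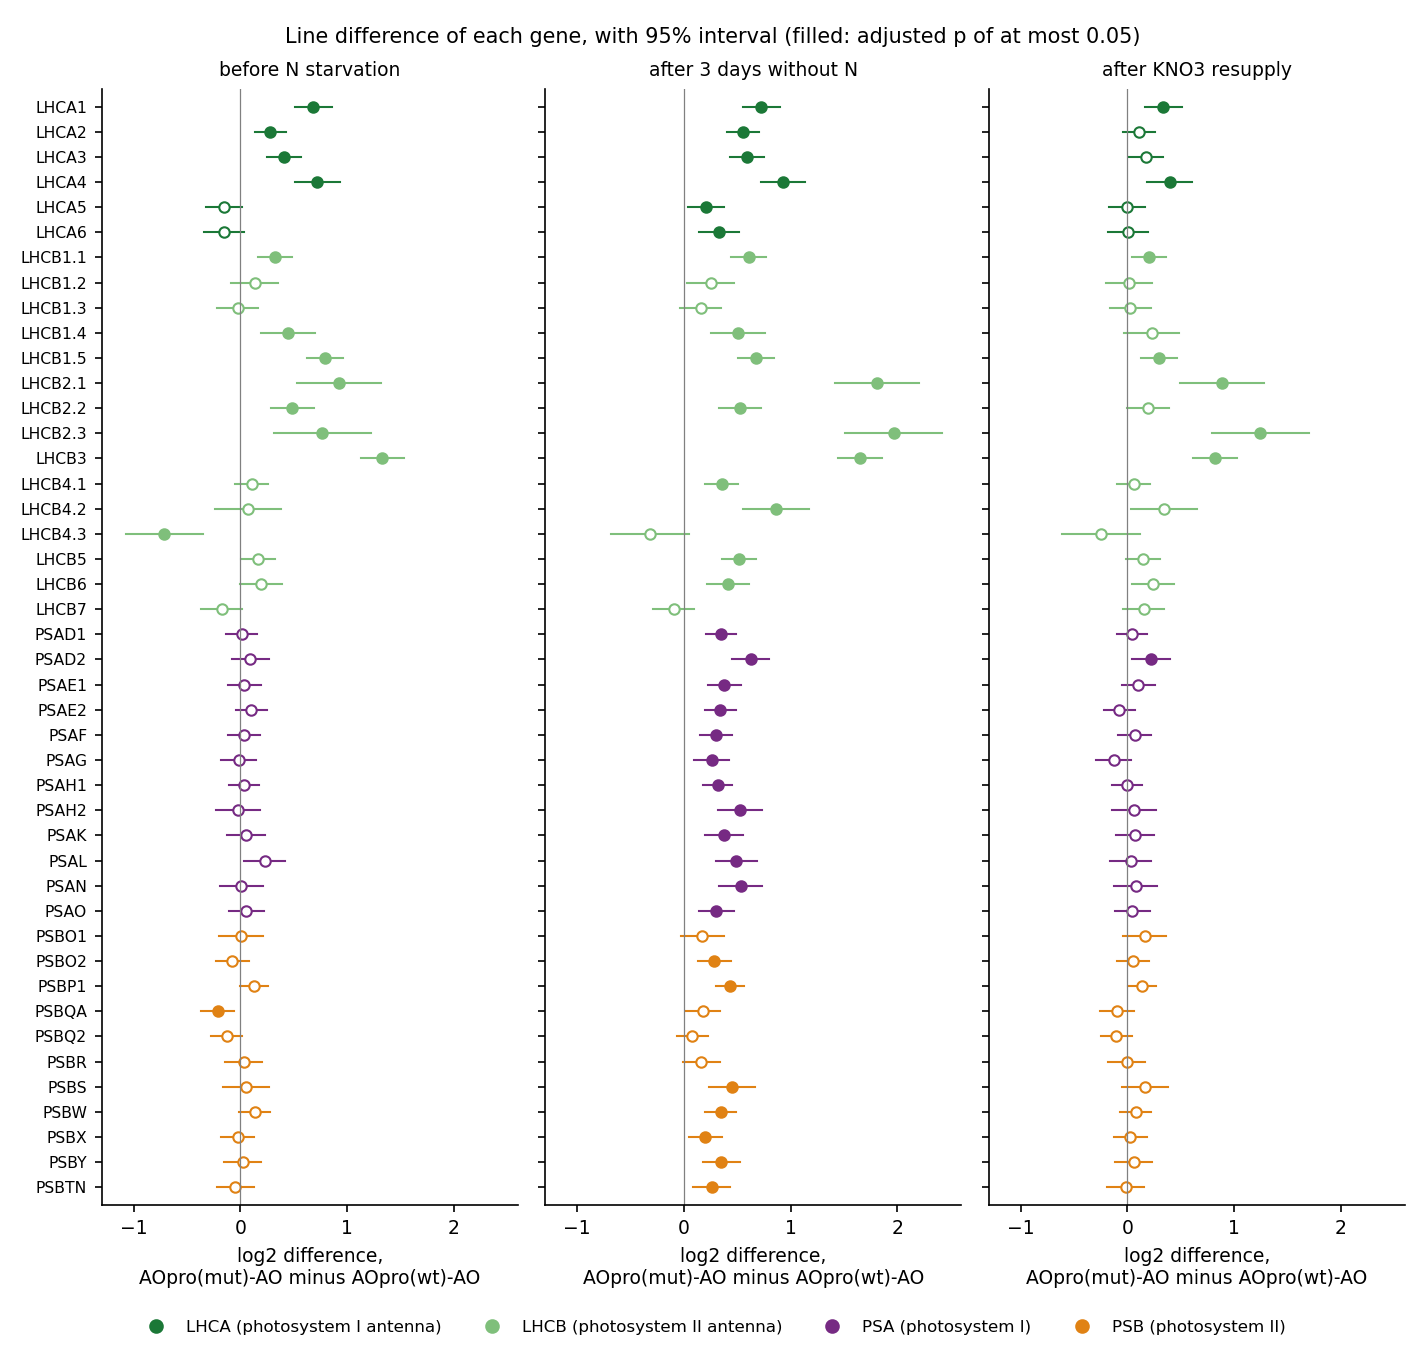
Log2 difference between AOpro(mut)-AO and AOpro(wt)-AO for each of the 44 genes, with a panel for each of the 3 stages, as the fitted value (point) with its 95% interval (line) over 3 arrays a group. Filled points passed an adjusted p of 0.05; 13, 36 and 8 genes did so at the 3 stages.

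LHCB3 (AT5G54270), a subunit of the major trimers, had the largest difference. Its levels before N starvation were 5.47, 5.50 and 5.73 in AOpro(wt)-AO and 6.85, 6.90 and 6.94 in AOpro(mut)-AO. The groups lay far apart relative to the spread within them, and the log2 difference was 1.33 (SE 0.0949, adjusted p = 5.59e-08), a 2.51-fold difference. Among the LHCA genes LHCA4 (AT3G47470), a subunit of the photosystem I antenna belt, differed most, with 6.10, 6.17 and 6.40 in AOpro(wt)-AO against 6.94, 6.98 and 6.92 in AOpro(mut)-AO, a difference of 0.72 (SE 0.0980, adjusted p = 4.90e-05). All AOpro(mut)-AO arrays were again above all AOpro(wt)-AO arrays. The other belt genes LHCA1, LHCA3 and LHCA2 were higher by 0.68, 0.41 and 0.28. LHCA5 and LHCA6, whose proteins are of low abundance and link photosystem I to the NADH dehydrogenase-like complex, did not pass, with differences of -0.15 and -0.16.

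Of the genes of the major trimers, LHCB2.1, LHCB1.5 and LHCB2.3 were higher by 0.93, 0.79 and 0.77. LHCB1.5 (AT2G34420) was at 6.42, 6.49 and 6.55 in AOpro(wt)-AO and 7.24, 7.30 and 7.29 in AOpro(mut)-AO, without overlap. The differences of LHCB2.2, LHCB1.4 and LHCB1.1 were 0.49, 0.45 and 0.32. LHCB1.2 and LHCB1.3 did not pass (0.13 and -0.025), although LHCB1.2 was at 0.40 and 0.58 on its dimmer probes. The LHCB1 genes are near-identical copies, as are the LHCB2 genes, so that a probe may take up signal from more than 1 of them, which was not tested. For the minor antenna the differences were 0.11 for LHCB4.1, 0.075 for LHCB4.2, 0.17 for LHCB5 and 0.19 for LHCB6, none of which passed, and LHCB7, a rare LHC protein, was at -0.17 and did not pass either. LHCB4.3 (AT2G40100), a divergent member of the LHCB4 group, was the antenna gene that passed in the other direction. It was at 4.25, 4.16 and 4.37 in AOpro(wt)-AO and at 3.45, 3.29 and 3.90 in AOpro(mut)-AO, a difference of -0.71 (SE 0.169, adjusted p = 0.00432), with no overlap between the groups.

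The subunits of the photosystems lay close to 0 at this stage. PSAL (AT4G12800), a subunit at the site where LHC trimers dock on photosystem I, had the largest difference of the PSA genes, with 4.26, 4.35 and 4.3 in AOpro(wt)-AO and 4.55, 4.57 and 4.48 in AOpro(mut)-AO. The arrays did not overlap, and the difference of 0.23 (SE 0.0898, adjusted p = 0.0592) did not pass. PSAH2 (AT1G52230), of the same docking site, had the lowest, with 3.93, 4.19 and 4.18 against 3.96, 4.11 and 4.17, a difference of -0.022 with a 95% interval of -0.23 to 0.19. The intervals of the 12 PSA genes lay between -0.23 and 0.42, and those of the 11 PSB genes between -0.37 and 0.28. PSBQA (AT4G21280), an extrinsic protein of the oxygen-evolving complex, was the PSB gene that passed, at 6.26, 6.35 and 6.40 in AOpro(wt)-AO and 6.07, 6.02 and 6.29 in AOpro(mut)-AO. The groups overlapped on 1 array, and the difference was -0.21 (SE 0.0738, adjusted p = 0.0347). This call was lost in 7 of 19 alternative settings. PSBW (AT2G30570), which stabilises the assembly of photosystem II with its antenna, stood at the other end, with 7.57, 7.68 and 7.70 against 7.78, 7.74 and 7.84 and a difference of 0.14 (adjusted p = 0.134).

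LHCB3 lies on chromosome 5 within a stretch of neighbouring genes whose levels were raised in AOpro(mut)-AO, from AT5G49520 to AT5G61610. Of the 1034 tested genes of this stretch, 925 were called higher before N starvation, with a median difference of 0.92, while the rest of chromosome 5 had a median of -0.018. The 40 tested genes nearest to LHCB3, 20 on each side, had a median of 0.98, and 38 of them were called higher. The difference of LHCB3 exceeded the median of the stretch by 0.41 before N starvation and by 0.72 after 3 days without N, and after KNO3 resupply LHCB3 minus that median was -0.12, with the stretch itself at 0.95. None of the other 43 genes lies in the stretch. The part of the neighbourhood in the value of LHCB3 was not tested.

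**Figure D2:**
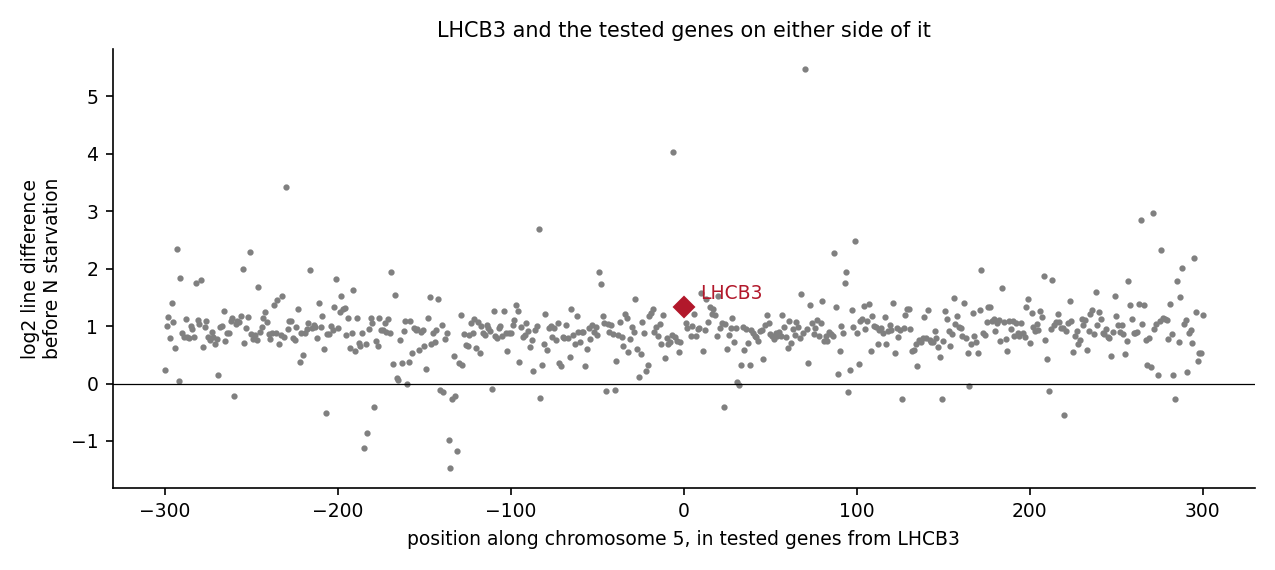
Log2 difference between AOpro(mut)-AO and AOpro(wt)-AO before N starvation (vertical axis) for the tested genes on chromosome 5 next to LHCB3, by their order along the chromosome (horizontal axis, in genes; 1 grey point a gene). LHCB3 (diamond) was at 1.33, and the stretch around it had a median of 0.92.

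After 3 days without N, genes of both photosystems were higher in AOpro(mut)-AO along with antenna genes. Of the 44 genes, 36 were higher in AOpro(mut)-AO (81.8%, against 26.5% of all genes) and none was lower (25.5% of all genes). All 6 LHCA genes, 11 of 15 LHCB, all 12 PSA and 7 of 11 PSB genes were among those that were higher. The medians were 0.57, 0.51, 0.36 and 0.26, beside 0.00098 for all genes. The 3 AOpro(mut)-AO arrays lay above the 3 AOpro(wt)-AO arrays for 39 of the 44 genes, which was so for 31.7% of all genes.

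LHCB2.3 (AT3G27690) and LHCB2.1 (AT2G05100), both of the major trimers, had the largest differences. LHCB2.3 was at 2.61, 3.10 and 3.19 in AOpro(wt)-AO and 5.22, 4.64 and 4.94 in AOpro(mut)-AO, a difference of 1.97 (SE 0.212, adjusted p = 3.54e-06) or 3.91-fold. LHCB2.1 was at -0.89, -0.64 and -0.66 against 1.32, 0.84 and 1.1, a difference of 1.81 (SE 0.183, adjusted p = 1.88e-06) or 3.51-fold. Together with LHCB3, at 1.65, they were the genes that also passed a log2 difference of 1, which 7.21% of all genes did in either direction. LHCB4.2, LHCB1.5 and LHCB1.1 followed with 0.87, 0.68 and 0.61, and LHCA4 led the LHCA genes with 0.93, followed by LHCA1 (0.73) and LHCA3 (0.59). The antenna genes that did not pass by their brightest probe were LHCB1.2 (0.25), LHCB1.3 (0.16), LHCB4.3 (-0.32) and LHCB7 (-0.097). On dimmer probes LHCB1.2 was at 0.62 and 0.90, LHCB1.3 at 0.17 to 0.85 and LHCB7 at -0.11.

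Among the PSA genes the differences ran from 0.26 for PSAG (-0.039 with quantile normalization) to 0.62 for PSAD2 (AT1G03130), a stromal subunit that docks ferredoxin. The levels of PSAD2 were 5.22, 5.24 and 5.36 in AOpro(wt)-AO and 5.96, 5.75 and 5.98 in AOpro(mut)-AO, with no overlap (adjusted p = 2.22e-05). PSAN, a lumenal subunit, and PSAH2 followed with 0.53 and 0.53, then PSAL (0.49), PSAK (0.38), PSAE1 (0.38), PSAD1 (0.35), PSAE2 (0.34), PSAH1 (0.32), PSAO (0.30) and PSAF (0.30), the plastocyanin docking subunit. In photosystem II the largest differences were those of PSBS (0.45), PSBP1 of the oxygen-evolving complex (0.43) and PSBY, a small subunit of the core (0.35). PSBW (0.34), PSBO2 (0.29), PSBTN (0.26) and PSBX (0.20) also passed, of which PSBTN and PSBX turned to -0.020 and -0.096 with quantile normalization. There PSBX passed limma's test as lower (adjusted p = 0.0469). Its call as higher was kept in 12 of 19 alternative settings. PSBO1 (0.17), PSBQA (0.18), PSBR (0.16) and PSBQ2 (0.080) did not pass, and were at 0.48, 0.26, 0.38 and 0.15 on their dimmest probes. The plot of line differences shows PSA and PSB genes to the right of 0 at this stage and around 0 at the others. Within the 3 slides that held both groups, the median over the 44 genes was 0.30 to 0.47. With quantile normalization the count was 22, with 20 higher and 2 lower, and the median of the PSB genes was 0.019.

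After KNO3 resupply, 7 antenna genes and 1 photosystem gene passed. In all, 8 of 44 genes were higher in AOpro(mut)-AO (18.2%, against 25.4% of all genes), and none was lower (21.9% of all genes). They were LHCB2.3, with 1.24 (SE 0.212, adjusted p = 0.000253), LHCB2.1 (0.89), LHCB3 (0.82), LHCA4 (0.39), LHCA1 (0.34), LHCB1.5 (0.29), LHCB1.1 (0.20) and PSAD2 (0.22). The levels of LHCB2.3 were 3.88, 3.66 and 3.8 in AOpro(wt)-AO and 4.67, 4.99 and 5.42 in AOpro(mut)-AO, without overlap. No PSB gene passed, and their intervals lay between -0.26 and 0.38. The medians were 0.14 for LHCA, 0.20 for LHCB, 0.053 for PSA and 0.053 for PSB, and 0.0082 for all genes. LHCB2.3 alone passed a log2 difference of 1 (6.89% of all genes). Within the 2 slides that held both groups, the median over the 44 genes was -0.028 and 0.14, that of PSA -0.081 and 0.11, and that of PSB -0.056 and 0.12, with opposite signs on the slides. Over 19 alternative settings, the call of PSAD2 was lost in 13 and that of LHCB1.1 in 11. The count was 14 without replicate 1 of the resupplied AOpro(mut)-AO plants, and the split was 9 higher and 3 lower with quantile normalization and 5 and 2 with median centring.

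**Figure D3:**
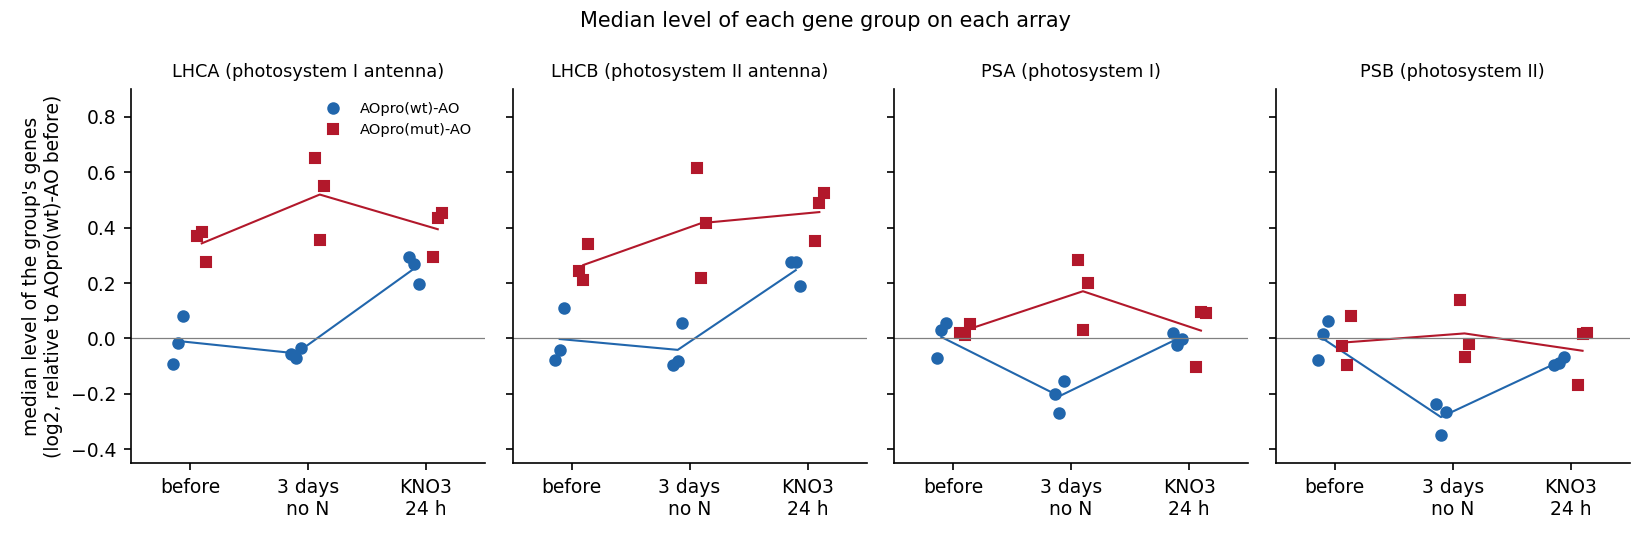
Median over the genes of each group on each of the 18 arrays (log2, relative to the mean of the 3 AOpro(wt)-AO arrays before N starvation), by stage (horizontal axis). Points are arrays, lines join the means of 3 arrays. After 3 days without N the AOpro(wt)-AO arrays lay at -0.27 to -0.16 for PSA and -0.35 to -0.24 for PSB, and the AOpro(mut)-AO arrays at 0.030 to 0.28 and -0.065 to 0.14.

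The comparisons between stages give the changes within each line. They share arrays with the comparisons between lines and with each other (the arrays after 3 days without N enter both the starvation and the resupply comparison), so that they are not independent of them. In AOpro(wt)-AO plants, 3 days without N lowered 19 of 44 genes (43.2%, against 31.9% of all genes) and raised 2 (4.55%, against 28.1%). The genes that fell were 8 of 12 PSA, 7 of 11 PSB, 2 of 6 LHCA and 2 of 15 LHCB genes, and the medians were -0.21, -0.28, -0.054 and -0.074. The medians of LHCA and LHCB were 0.16 and 0.059 with quantile normalization, and were also above 0 with the dimmest probe of a gene (LHCA) and with array quality weights or without replicate 3 before or replicate 1 after 3 days without N (LHCB). The changes largest in size were -0.62 for LHCA6, -0.49 for PSBQA, -0.47 for PSBO2 of the oxygen-evolving complex, -0.45 for LHCA5, -0.39 for PSBS and -0.34 for PSAN, and none of the 44 genes passed an absolute log2 change of 1 (4.74% of all genes did). LHCA6 (AT1G19150) was at 4.64, 4.61 and 4.70 before and 3.89, 4.02 and 4.18 after 3 days without N (SE of the change 0.0865, adjusted p = 3.57e-05), with no overlap. PSBQA was at 6.26, 6.35 and 6.40 before and 5.89, 5.75 and 5.89 after (adjusted p = 6.39e-05). LHCB1.5 (0.35) and LHCB1.4 (0.32) were the genes that rose, while LHCB1.1 was at -0.19 and LHCB4.1 at -0.21, values that turned to 0.048 and 0.0096 with quantile normalization. On dimmer probes LHCB1.5 was at 0.31, -0.044 and 0.54, and LHCB1.4 at 0.031, 0.62 and 0.63. PSAF (-0.093), which docks plastocyanin, and PSBR (-0.12) had the smallest changes of their groups and did not pass. The other PSA genes that passed were PSAE1 (-0.28), PSAH2 (-0.25), PSAK (-0.23), PSAD1 (-0.21), PSAG (-0.21), PSAD2 (-0.20) and PSAH1 (-0.18), of which PSAD2 and PSAH1 were at 0.090 and 0.075 with quantile normalization, and the other PSB genes were PSBP1 (-0.32), PSBTN (-0.30), PSBX (-0.28) and PSBY (-0.28). Over 19 alternative settings, the calls kept least often were those of LHCB1.1, PSAD2, PSAH2 and LHCB1.4, in 5, 9, 10 and 11. The count of 21 was 12 without replicate 2 after 3 days without N and 13 without replicate 3 before it, and with quantile normalization 7 genes were higher and 7 lower.

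In AOpro(mut)-AO plants none of the 44 genes fell with N starvation (23.4% of all genes did) and 9 rose (20.5%, against 18.1% of all genes). LHCB2.3 rose by 1.08 (SE 0.212, adjusted p = 0.00127), from 3.68, 3.94 and 3.94 to 5.22, 4.64 and 4.94, LHCB2.1 by 0.95 and LHCB4.2 by 0.71. LHCB1.4 (0.38), PSAD2 (0.33), LHCA4 (0.32), LHCB3 (0.30), PSAH2 (0.30) and LHCB1.5 (0.24) made up the rest. LHCB2.3 alone passed a log2 change of 1 (2.43% of all genes). No PSB gene passed, with changes from -0.11 to 0.088. The count of 9 was 4 without replicate 1 after 3 days without N, 5 without replicate 1 before it and 16 without replicate 2 after 3 days, and 5 when only the 6 arrays compared entered the fit.

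KNO3 resupply raised 29 of 44 genes in AOpro(wt)-AO plants (65.9%, against 23.3% of all genes) and lowered 1 (25% of all genes were called lower). All 6 LHCA genes rose, by 0.28 to 0.53, as did 9 of 15 LHCB, 8 of 12 PSA and 6 of 11 PSB genes. LHCB2.1, the gene that passed a log2 change of 1 (4.22% of all genes did), rose most, by 1.04 (SE 0.183, adjusted p = 0.000417), from -0.89, -0.64 and -0.66 to 0.45, 0.17 and 0.30. LHCB2.3 (0.81), LHCB3 (0.69), LHCA6 (0.53), LHCA4 (0.49), PSAL (0.39), PSAD2 (0.37), PSBO2 (0.34) and PSBP1 (0.33) followed at the head of their groups. LHCB1.1 rose by 0.44, LHCB4.2 by 0.41 and LHCB2.2 by 0.31, and PSAH2 by 0.36, PSAN by 0.29 and PSBS by 0.28. PSAH1 rose by 0.20 and was at -0.011 with quantile normalization. LHCB7 (AT1G76570) moved the other way, from 0.20, 0.31 and 0.41 to -0.14, -0.072 and -0.011, and fell by 0.38 (adjusted p = 0.00321). LHCB1.2 (-0.013), LHCB1.3 (0.075), PSAF (0.089) and PSBO1 (-0.042) were among those that did not pass by their brightest probe. On dimmer probes the changes were 0.27 and 0.57 for LHCB1.2 and 0.26 and 0.44 for PSBO1. Those of LHCB1.3 ran from -0.053 to 0.67 on its dimmer probes. Quantile normalization gave 14 calls and normexp background correction 18 in place of 30.

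In AOpro(mut)-AO plants, 1 of the 44 genes passed with KNO3 resupply (2.27%), in the direction in which 13.2% of all genes were called. Higher calls were made for 14.1% of all genes, and 1.44% passed an absolute log2 change of 1, as none of the 44 did. PSAE2 (AT2G20260), a stromal subunit next to the ferredoxin docking site, went from 5.67, 5.50 and 5.74 to 5.29, 5.39 and 5.40 and fell by 0.28 (SE 0.0668, adjusted p = 0.00776). This call of PSAE2 was lost with normexp background correction, where 1 gene was higher, and when only the 6 arrays compared entered the fit, where 0 genes passed; the slide as a block and array quality weights each gave 1 gene higher and 1 lower. The changes of the antenna genes ran from -0.25 for LHCB1.2 to 0.21 for LHCA6, with a median of -0.062, and none passed. The median over the 44 genes was -0.079, while within the 2 slides that held both groups it was 0.023 and 0.095, of the opposite sign. The count was 3 without replicate 2 after 3 days without N.

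**Figure D4:**
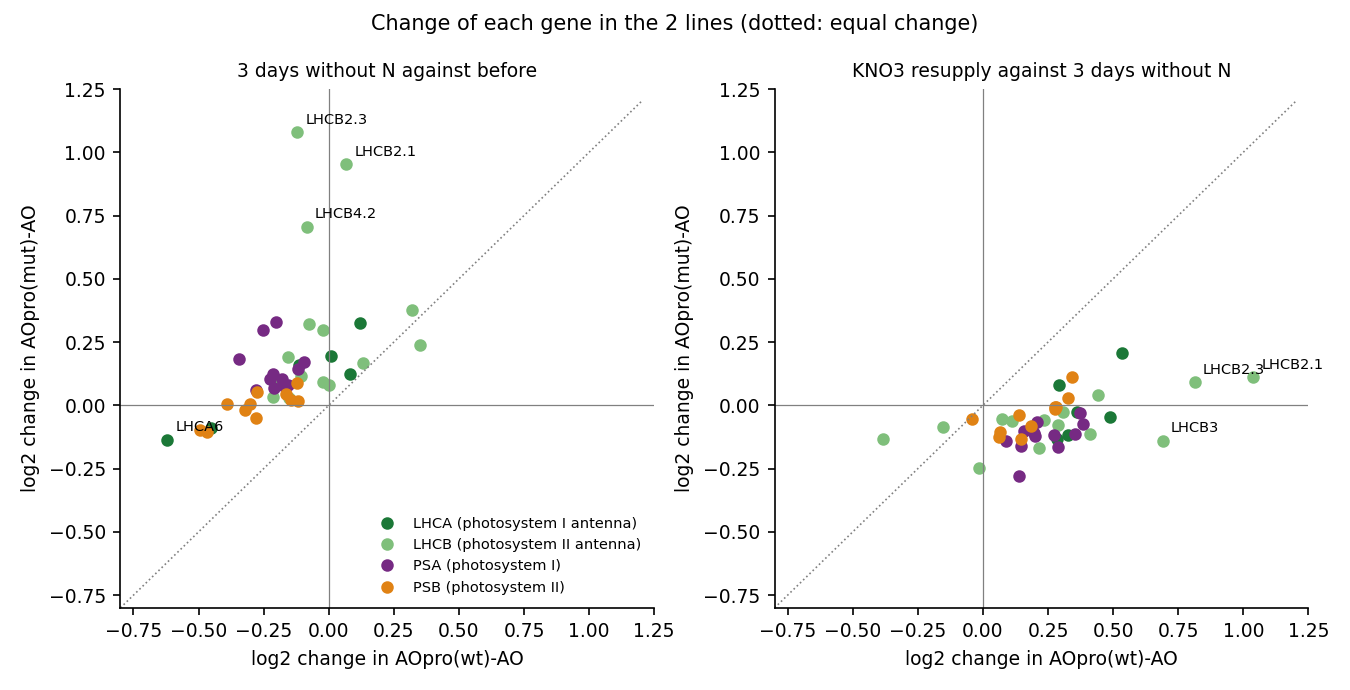
Log2 change of each of the 44 genes in AOpro(wt)-AO (horizontal axis) and AOpro(mut)-AO (vertical axis), for 3 days without N against before (left) and for KNO3 resupply against 3 days without N (right). On the left 43 genes lay above the dotted line of equal change, and on the right 42 lay below it.

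The difference between the lines in their response was tested as an interaction. For N starvation, 43 of the 44 genes had a more positive change in AOpro(mut)-AO, and 10 passed, all in this direction (22.7%, against 4.72% of all genes higher and 3.11% lower). The median interaction was 0.24 for LHCA, 0.24 for LHCB, 0.31 for PSA and 0.30 for PSB, beside -0.0028 for all genes. PSAD2 had the lowest adjusted p, at 0.53 (SE 0.115, adjusted p = 0.0182). Its levels went from 5.41, 5.49 and 5.53 to 5.22, 5.24 and 5.36 in AOpro(wt)-AO and from 5.61, 5.57 and 5.53 to 5.96, 5.75 and 5.98 in AOpro(mut)-AO, downward in one line and upward in the other, although with quantile normalization PSAD2 was at 0.090 for AOpro(wt)-AO. PSAH2 went from 3.93, 4.19 and 4.18 to 3.82, 3.81 and 3.92 and from 3.96, 4.11 and 4.17 to 4.50, 4.17 and 4.47, an interaction of 0.55 (SE 0.137, adjusted p = 0.0307). For LHCB2.3 the interaction was 1.2 (SE 0.300, adjusted p = 0.0311), the only one of the 44 that passed above 1 (0.969% of all genes passed 1 in size). The others that passed were LHCB4.2 (0.79), PSAN (0.53), LHCA6 (0.48), PSBQA (0.40), PSBO2 (0.36), PSAD1 (0.34) and PSBP1 (0.30).

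These calls lay near the threshold, with adjusted p of 0.0182 to 0.0489. Their number ranged from 0 without replicate 1 to 18 without replicate 2 of AOpro(mut)-AO after 3 days without N, was 1 without replicate 2 or 3 of AOpro(wt)-AO or replicate 2 of AOpro(mut)-AO before N starvation and without replicate 1 or 2 of AOpro(wt)-AO after it, was 2 without replicate 1 of AOpro(mut)-AO before or replicate 3 after it, and was 6 without replicate 1 of AOpro(wt)-AO before it. With the slide as a block it was 3, and with quantile normalization 5 higher and 1 lower. Those 2 AOpro(mut)-AO arrays were at opposite ends of their group: the medians of LHCA, LHCB, PSA and PSB were highest on replicate 1 and lowest on replicate 2.

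For KNO3 resupply, 42 of the 44 genes had a less positive change in AOpro(mut)-AO and 8 passed, all in this direction (18.2%, against 2.98% of all genes lower and 3.18% higher). LHCB3 had the lowest adjusted p, with -0.83 (SE 0.134, adjusted p = 0.00434). Its levels went from 5.45, 5.56 and 5.62 to 6.26, 6.17 and 6.26 in AOpro(wt)-AO, and from 7.41, 7.01 and 7.17 to 6.95, 7.05 and 7.17 in AOpro(mut)-AO. On this brightest probe the upward step was thus seen in AOpro(wt)-AO only, where it was 0.69, against -0.14. On the other LHCB3 probes the changes were 0.83, 0.98 and 1.05 in AOpro(wt)-AO and 0.087, 0.10 and 0.076 in AOpro(mut)-AO. LHCA2 (AT3G61470), of the antenna belt, went from 5.87, 5.91 and 5.91 to 6.25, 6.28 and 6.15 and from 6.57, 6.31 and 6.48 to 6.24, 6.40 and 6.36, with -0.45 (SE 0.0961, adjusted p = 0.0178). PSAE2 went from 5.32, 5.26 and 5.31 to 5.54, 5.40 and 5.36 in AOpro(wt)-AO, and fell in AOpro(mut)-AO as given above, with -0.42 (SE 0.0945, adjusted p = 0.0221). LHCA4 (-0.53), PSAL (-0.46), LHCA3 (-0.42), LHCB1.1 (-0.40) and PSAG (-0.39) also passed, and no PSB gene did. None was above 1 in size (0.945% of all genes). This count was 18 without replicate 2 of AOpro(mut)-AO after 3 days without N, 13 without replicate 3 of AOpro(mut)-AO after resupply, and 10 without replicate 1 of AOpro(wt)-AO after resupply, and without any one of the other 9 arrays it was 2 to 5. It was 1 with the slide as a block.

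Set against the plants before N starvation, resupplied AOpro(wt)-AO plants had 12 of 44 genes higher (27.3%, against 17.2% of all genes) and 2 lower (4.55%, against 25.2%; 3.37% of all genes passed an absolute log2 change of 1, as LHCB2.1 did). Of those that were higher 11 were antenna genes, led by LHCB2.1 (1.1), LHCB2.3 (0.69), LHCB3 (0.67) and LHCA4 (0.61), and 1 was PSAL (0.27). LHCB7 (-0.38) and PSBQA (-0.22) were lower. Over 19 alternative settings, the calls of PSBQA, PSAL and LHCB2.3 were lost in 8, 6 and 4. In AOpro(mut)-AO plants 5 were higher (11.4%, against 14.2% of all genes), LHCB2.3 (1.17), LHCB2.1 (1.07), LHCB4.2 (0.59), PSAD2 (0.30) and LHCA4 (0.28), and PSAE2 was lower (-0.20, with 18.4% of all genes lower). LHCB2.3 and LHCB2.1 passed a log2 change of 1 there (3.37% of all genes). In AOpro(mut)-AO the calls of PSAE2, LHCA4 and PSAD2 were lost in 11, 10 and 4 of 19 alternative settings. The count of 6 was 3 without replicate 3 of the resupplied AOpro(mut)-AO plants, and quantile normalization gave 9 higher and 0 lower. Over the 6 groups, AOpro(wt)-AO after 3 days without N had the lowest mean for 32 of the 44 genes (24.5% of all genes), and AOpro(mut)-AO after 3 days without N had the highest mean for 30 (9.97% of all genes).

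The size of the differences depended on the probe. Of the 44 genes, 35 had more than 1 tested probe. After 3 days without N, the line difference had 1 sign on all probes of each of these 35 genes, and it was larger in size on the dimmest probe than on the brightest for 33 of them, with medians of 0.71 and 0.43. Before N starvation this was so for 30 of 35, with medians of 0.30 and 0.11. From the brightest to the dimmest probe, the differences of LHCB3 before N starvation were 1.33, 1.64, 1.85 and 2.1, and those of LHCA4 0.72, 0.67, 0.83, 0.93, 1.1 and 1.14. For LHCB2.2 they were 0.49, 0.75, 1.29 and 1.42. LHCB1.3 had 9 probes, with differences of -0.025, 0.11, 0.037, 0.57, 0.51, 0.42, 0.19, 0.21 and 0.20, so that the value of -0.025 given above was the lowest of the 9. Counted by the dimmest probe, 20 genes passed before N starvation (18 higher), 41 after 3 days without N and 10 after KNO3 resupply. The share of all genes that passed by their dimmest probe was not computed, so these counts have nothing to be set against. In these 2 line differences the brightest probe thus gave a smaller size than the dimmest for most of the 35 genes. In the line difference after KNO3 resupply the dimmest probe was larger in size for 28 of 35 and more positive for 21. With N starvation in AOpro(wt)-AO these counts were 28 and 16.

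**Figure D5:**
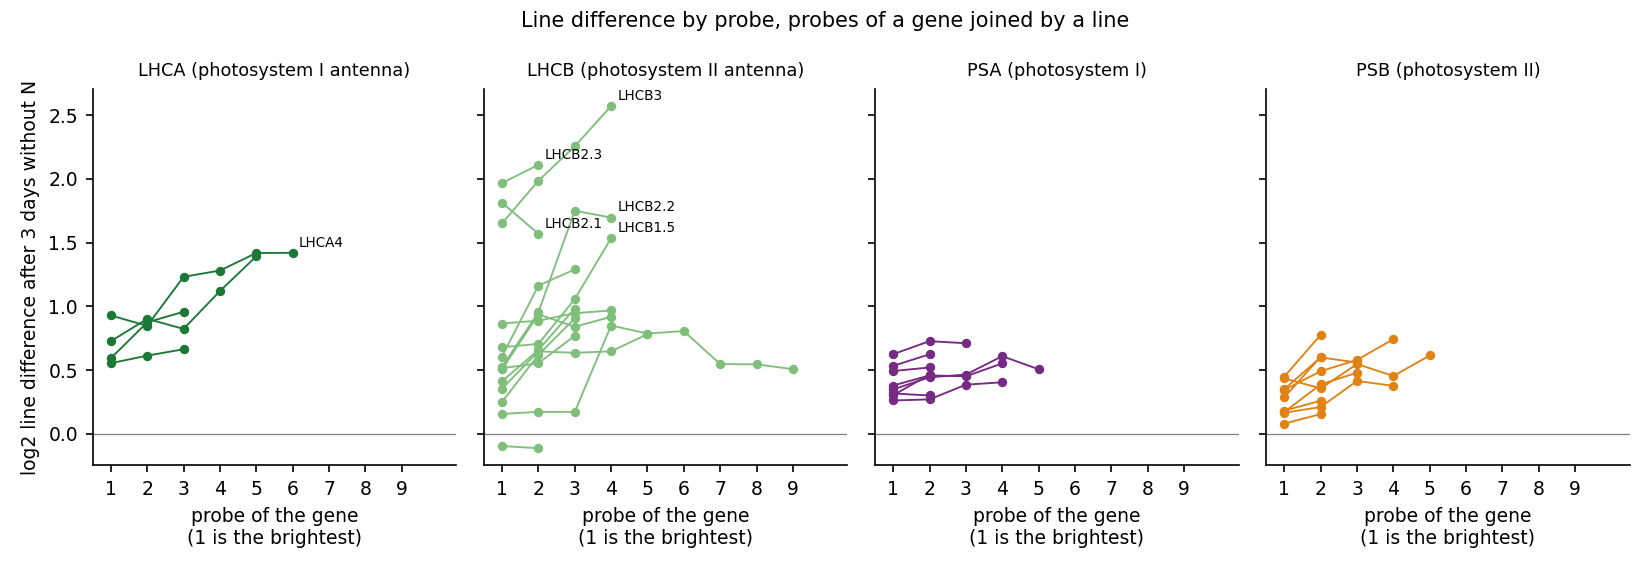
Log2 line difference after 3 days without N (vertical axis) on each tested probe of the 35 genes with several probes, ordered from the brightest probe (1) to the dimmest (horizontal axis), with the probes of a gene joined by a line. The median over genes was 0.43 on the brightest and 0.71 on the dimmest probe.

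Genes of connected pathways were followed on the same arrays. Of 23 genes of chlorophyll synthesis, 4 were higher (17.4%, against 19.3% of all genes) and 1 lower (19.3% of all genes) in AOpro(mut)-AO before N starvation. After 3 days without N 18 were higher and none lower (78.3%, against 26.5% of all genes, median 0.44). After KNO3 resupply 10 were higher and none lower (43.5%, against 25.4%, median 0.19). Lower calls were made for 25.5% and 21.9% of all genes at these stages. PORA, a light-dependent protochlorophyllide reductase that also lies in the raised stretch of chromosome 5, was higher by 4.02, 3.52 and 3.04 at the 3 stages. CHLI2, a subunit of magnesium chelatase, was higher by 0.39, 0.65 and 0.46, and HEMB1, of the synthesis of porphobilinogen, by 0.26, 0.44 and 0.19. GUN4, which assists the chelatase, was lower before N starvation (-0.38, adjusted p = 0.0483) and was at 0.22 and 0.33 later, where it did not pass. Its call before N starvation was lost in 9 of 19 alternative settings. N starvation lowered 20 of the 23 genes in AOpro(wt)-AO (87%, against 31.9% of all genes) and raised 1 (28.1% of all genes). In AOpro(mut)-AO it lowered 13 (56.5%, against 23.4%) and raised 3 (18.1% of all genes). KNO3 resupply raised 21 in AOpro(wt)-AO (91.3%, against 23.3%) and 13 in AOpro(mut)-AO (56.5%, against 14.1%). It lowered none in either line, where 25% and 13.2% of all genes were called lower.

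Of 12 nuclear genes of electron transport and ATP synthase, 2 were lower in AOpro(mut)-AO before N starvation, ATPC1 of the ATP synthase (-0.26) and PETC, the Rieske protein of the cytochrome complex (-0.20), and none was higher. These 2 were 16.7%, against 19.3% of all genes. Over 19 alternative settings, the call of PETC was lost in 7 and that of ATPC1 in 1. After 3 days without N 4 were higher (33.3%, against 26.5% of all genes), ATPC1 being at 0.019 and PETC at 0.17, neither of which passed. Of 11 genes that regulate the antenna or its transcripts, 2 were higher and 3 lower before N starvation, 18.2% and 27.3% against 19.3% and 19.3% of all genes. PIF3, a light-signalling transcription factor, was higher by 0.37 and CPSRP54, which brings LHC proteins to the thylakoid, by 0.20. HY5 and GLK1, transcription factors that promote photosynthesis genes, were lower (-0.28 and -0.27), as was STN7, the kinase of LHC proteins in state transitions (-0.18). Over 19 alternative settings, the calls of HY5 and STN7 were lost in 6 and 8, and that of GLK1 in none. After 3 days without N and after resupply, CPSRP54 was at 0.56 and 0.32, PIF3 at 0.26 and 0.15, GLK1 at -0.22 and -0.10, HY5 at -0.038 and 0.43, and STN7 at 0.053 and 0.0037.

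Markers of other shoot cell types also moved. Of 3 epidermis markers, PDF1 was higher in AOpro(mut)-AO by 0.48, 0.77 and 0.84 at the 3 stages. KCS10 was lower before N starvation (-0.26) and after resupply (-0.25) and was at 0.058 in between. Its call before N starvation was lost in 7 of 19 alternative settings. ATML1 was at -0.19, -0.16 and -0.30, of which the last passed. The summed level of the 3 epidermis markers was 18.5 to 20.4 in AOpro(wt)-AO and 20 to 20.9 in AOpro(mut)-AO before N starvation, 15.1 to 17.1 and 19.3 to 20.4 after 3 days without N, and 15.6 to 18.5 and 17.7 to 19.7 after resupply, in multiples of the 75th percentile signal. Of 3 guard cell markers, FAMA was higher at the 3 stages by 0.27, 0.40 and 0.51, KAT1 was lower (-0.49, -0.26 and -0.27), and MYB60 did not pass (0.021, 0.15 and 0.16). All 3 fell with KNO3 resupply in AOpro(wt)-AO, with a summed level of 1.88 to 2.02 before and 1.59 to 1.60 after it, and MYB60 and KAT1 fell in AOpro(mut)-AO, where the sum was 2.01 to 2.17 before and 1.72 to 1.86 after it. Before N starvation the sums were 1.99 to 2.15 and 1.94 to 2.00. The phloem markers SUC2 and APL were both higher in AOpro(mut)-AO after resupply (0.34 and 0.27), with sums of 2.6 to 2.71 against 3.11 to 3.57, and APL also after 3 days without N (0.20, with SUC2 at -0.0081). Both fell with KNO3 resupply in AOpro(wt)-AO (-0.32 and -0.25), where the sum had been 3.01 to 3.52. The sums of RBCS1A and CA1 were 276 to 313 in AOpro(wt)-AO and 303 to 367 in AOpro(mut)-AO after 3 days without N, and overlapped between the lines. The part of cell type composition in the differences of the LHC and photosystem genes was not tested.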

How the data were processed

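Total RNA of whole shoots was labelled with Cy3 and hybridized to 18 Agilent Arabidopsis (V4) arrays. The deposited scanner files hold, for each spot, an intensity that the authors' software (Agilent Feature Extraction, version 12.1.1.1 per the labels, a version that differs from the one in the methods) had corrected for background (gProcessedSignal, linear scale, no normalization between arrays), with mean and local background intensities and quality marks. A deposited value table holds the same intensities divided by a constant of each array near its 75th percentile, with low values set to 0; it was an alternative with a floor of 0.01.

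Outlier spots were left out (3 to 91 an array), spots of a probe averaged on the log2 scale, and each array's 75th percentile, taken without control spots (2221 to 3122 in processed signal), was subtracted. Probes were tied to loci through RefSeq transcript accessions or AGI codes (annotation TAIR10.1, while the array headers name TAIR10, so that no coordinates are given), and entered the test if all arrays of 1 or more groups marked them as well above background. Group means of all 18 arrays were fitted with limma 3.58.1 in R 4.3.3, and p-values were adjusted over all tested probes of a comparison. Each gene is represented by its brightest tested probe. The script was tested on simulated data. The number of arrays limits the precision; intensities carry no read depth. Whether replicates came from separate cultures is not given in the sources used here, so p-values measure the spread between these samples. Arrays lay on 5 slides, each with 3 or 4 groups, and the slide was tried as a block. Same-numbered arrays deviated together in the line difference before N starvation (correlations of 0.17, 0.12 and 0.22 across probes). Of these pairs, those numbered 1 and 3 shared a slide. With N starvation in AOpro(wt)-AO the correlations were 0.082, 0.19 and 0.081, and in no other comparison were all 3 positive. The fit did not use these numbers, which are given in the labels, so every SE and adjusted p given is unpaired. Pairing was tried with the replicate number as a block.

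Named genes were, for each gene group and comparison, up to 3 with the largest and 2 with the smallest changes and those moving past the threshold against their group, with array values for the extremes before N starvation and the lowest adjusted p of each interaction; others named were chosen after their values were seen. The genes, lists and comparisons were chosen with earlier results of these data known. Alternatives covered normalization, background correction, filters, probes, slides, replicates and thresholds. Plastid-encoded subunits were not analysed here, and no sequences are printed.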

Additional observations from a re-analysis of the deposited data

Results flagged for a closer look

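The response of the 2 lines differed, by limma's test of the interaction at an adjusted p of 0.05, for 18 values. For N starvation the log2 differences in response (AOpro(mut)-AO minus AOpro(wt)-AO) were those of LHCA6 (0.48), LHCB2.3 (1.2), LHCB4.2 (0.79), PSAD1 (0.34), PSAD2 (0.53), PSAH2 (0.55), PSAN (0.53), PSBO2 (0.36), PSBP1 (0.30) and PSBQA (0.40). For KNO3 resupply they were those of LHCA2 (-0.45), LHCA3 (-0.42), LHCA4 (-0.53), LHCB1.1 (-0.40), LHCB3 (-0.83), PSAE2 (-0.42), PSAG (-0.39) and PSAL (-0.46). No gene passed in both sets, and why the sets hold different genes was not tested. Over all 44 genes, 43 values for N starvation were positive and 42 for KNO3 resupply were negative. The 18 values that passed were all positive for N starvation and all negative for KNO3 resupply. Both interactions use the arrays after 3 days without N, with opposite sign.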

How the results depend on the processing

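Counts are of the 44 genes that passed, against 13, 36, 8, 21, 9, 30, 1, 14, 6, 10 and 8 in the order in which the comparisons are listed below for the absolute log2 change of 1. Counts outside 1.5 times these were as follows, and their cause was not tested. Shares of all genes were computed for the main setting only. Dimmest tested probe of a gene gave 20 for the line difference before N starvation, 2 for KNO3 resupply in AOpro(mut)-AO, 6 for the N starvation interaction, 15 for the KNO3 resupply interaction. Quantile normalization gave 22 for the line difference after 3 days without N, 14 for N starvation in AOpro(mut)-AO, 14 for KNO3 resupply in AOpro(wt)-AO, 2 for KNO3 resupply in AOpro(mut)-AO, 6 for the N starvation interaction, 2 for the KNO3 resupply interaction. Only arrays of the groups compared gave 5 for N starvation in AOpro(mut)-AO, 0 for KNO3 resupply in AOpro(mut)-AO, 2 for resupplied against unstarved AOpro(mut)-AO, 1 for the KNO3 resupply interaction. Normexp background correction gave 18 for KNO3 resupply in AOpro(wt)-AO, 1 for the N starvation interaction, 1 for the KNO3 resupply interaction. Array quality weights gave 2 for KNO3 resupply in AOpro(mut)-AO, 19 for the N starvation interaction. Slide as block gave 2 for KNO3 resupply in AOpro(mut)-AO, 3 for resupplied against unstarved AOpro(mut)-AO, 3 for the N starvation interaction, 1 for the KNO3 resupply interaction. No filter on dim probes gave 5 for the N starvation interaction, 3 for the KNO3 resupply interaction. Unadjusted p of 0.001 gave 1 for the N starvation interaction, 3 for the KNO3 resupply interaction. Mean of all tested probes of a gene gave 18 for the KNO3 resupply interaction. Requiring also an absolute log2 change of 1 left 1 (the line difference before N starvation), 3 (after 3 days without N), 1 (after KNO3 resupply), 0 (N starvation in AOpro(wt)-AO), 1 (in AOpro(mut)-AO), 1 (KNO3 resupply in AOpro(wt)-AO), 0 (in AOpro(mut)-AO), 1 (resupplied against unstarved AOpro(wt)-AO), 2 (AOpro(mut)-AO), 1 (the N starvation interaction), 0 (the KNO3 resupply interaction), by construction fewer. Leaving out single arrays gave 12 to 14 (the line difference before N starvation), 32 to 38 (after 3 days without N), 6 to 14 (after KNO3 resupply), 12 to 22 (N starvation in AOpro(wt)-AO), 4 to 16 (in AOpro(mut)-AO), 21 to 26 (KNO3 resupply in AOpro(wt)-AO), 1 to 3 (in AOpro(mut)-AO), 10 to 14 (resupplied against unstarved AOpro(wt)-AO), 3 to 5 (AOpro(mut)-AO), 0 to 18 (the N starvation interaction), 2 to 18 (the KNO3 resupply interaction). Leaving out LHCB3 with its stretch of chromosome 5, the deposited value table, keeping outlier spots and requiring probes above background on all arrays kept each count within 1.5 times, as did median centring.

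Changes of single genes past the threshold changed sign under quantile normalization for PSAG (-0.039), PSBX (-0.096, which passed limma's test as lower with adjusted p = 0.0469), PSBTN (-0.020) in the line difference after 3 days without N, for LHCB1.1 (0.048), LHCB4.1 (0.0096), PSAD2 (0.090), PSAH1 (0.075) with N starvation in AOpro(wt)-AO and for PSAH1 (-0.011) with KNO3 resupply in AOpro(wt)-AO, and with the mean of all probes for PSAD2 (0.047) with N starvation in AOpro(wt)-AO. Over all settings, 2833 other such values stayed past the threshold and 553 did not, without change of sign. With the replicate number as a block the counts were 13, 36, 7, 20, 9, 30, 1, 14, 5, 11, 6, in the same order; same-numbered arrays of the groups compared had correlations of -0.22 to 0.22 in their deviations, and no count moved by over 1.5 times. The block ended no call of the line difference before N starvation; elsewhere it ended those of LHCB1.1 (line difference after resupply, N starvation in AOpro(wt)-AO and KNO3 resupply interaction), PSAE2 (resupplied against unstarved AOpro(mut)-AO), PSBP1 (N starvation interaction), PSAG and PSAL (KNO3 resupply interaction). Counting only genes without near-identical copies was not run, for want of sequences. The precision is limited by 3 arrays a group, and for most genes with several probes the brightest probe showed a smaller line difference in size than the dimmest.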

Other observations

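Genes that assemble or repair photosystem II and LHC-like stress proteins were measured on the same arrays. N starvation lowered 8 of 10 assembly and repair genes in AOpro(wt)-AO (80%, against 31.9% of all genes, median -0.54). In AOpro(mut)-AO it lowered 7 (70%, against 23.4%, median -0.22) and raised 2 (18.1% of all genes). KNO3 resupply raised 9 in AOpro(wt)-AO (90%, against 23.3%) and 4 in AOpro(mut)-AO (40%, against 14.1%), where it lowered 1 (13.2% of all genes). PSB28, a protein of photosystem II assembly, was lower in AOpro(mut)-AO before N starvation (-0.35, adjusted p = 0.0469) and was at 0.11 and 0.0016 later; it fell with N starvation in AOpro(wt)-AO (-1.02) and in AOpro(mut)-AO (-0.57). ELIP1 and ELIP2, early light-induced proteins, were higher in AOpro(mut)-AO after 3 days without N by 1.03 (adjusted p = 0.0122) and 0.93 (adjusted p = 0.00167) and after KNO3 resupply by 2.26 (adjusted p = 3.36e-05) and 1.38 (adjusted p = 7.26e-05), and were at 0.76 and 0.019 before N starvation, neither of which passed. OHP1, a single-helix protein of photosystem assembly, was lower before N starvation (-0.36, adjusted p = 0.0346) and was at 0.21 and 0.052 later. Over 19 alternative settings, the calls of PSB28 and OHP1 before N starvation were lost in 7 and 6.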
